A study of Homo sapiens with 4 samples.

Results

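The mitochondrial ribosomal protein genes were examined in ATAC-seq peak lists of 786-O cells, a line of human clear cell renal cell carcinoma. The set was taken by name: protein-coding genes of the RefSeq annotation of GRCh38 whose symbol is MRPL or MRPS followed by a digit. It held 77 of 20033 protein-coding genes, 49 for the large subunit (MRPL) and 28 for the small subunit (MRPS). ATAC-seq marks open chromatin by where the Tn5 transposase can cut. One group was treated with the DMSO vehicle and the other with 5 µM ACSS2i, an agent named for ACSS2, the enzyme that makes acetyl-CoA from acetate in the cytosol and nucleus. Each group had 2 libraries, taken after 24 h, and all came from the same cell line. The labels do not say whether the 2 libraries of a group were separate cultures, so p-values cover the spread between these samples alone, and that spread may be technical.

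Mitochondria carry their own ribosome, which translates the few proteins encoded in mitochondrial DNA, all of them parts of the respiratory chain and the ATP synthase. Its proteins are encoded in the nucleus, made in the cytosol and imported, so their genes depend on nuclear chromatin. Some descend from bacterial ribosomal proteins, and others were added in the mitochondrial lineage.

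A gene was counted as having a gene-end peak in a library when a listed peak lay within 1000 bp of either end of its span. Such a peak was counted as lost when it was listed in both DMSO libraries and in neither ACSS2i library. Promoter sequence from RefSeq (GRCh38.p14) was given for 69 of the 77 genes. MRPL2, MRPL10, MRPL13, MRPL15, MRPL21, MRPL23, MRPL35 and MRPS28 had no window. The sequences below run 5′ to 3′ on the gene's own strand over 140 bases, of which the last 20 lie after the start. They were chosen because they lie under the DMSO peaks and hold letters of ETS, YY1 or NRF1 factors, which are known regulators of mitochondrial genes, with capitals marking the match. CCGGAAG is the core letters bound by ETS factors such as GABPA, AAGATGGCG those bound by YY1, and the NRF1 motif is a palindrome of 10 letters, capitalised in MRPL17. All were searched on both strands, so that an ETS match on the other strand reads CTTCCGG.

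The first 4 belong to genes with a peak in all 4 libraries. They are MRPL38 (YY1, chr17:75904865-75905004, minus strand), MRPL40 (ETS, chr22:19432425-19432564, plus strand), MRPS12 (ETS, chr19:38930824-38930963, plus strand) and MRPL17 (NRF1, chr11:6683321-6683460, minus strand).
MRPL38: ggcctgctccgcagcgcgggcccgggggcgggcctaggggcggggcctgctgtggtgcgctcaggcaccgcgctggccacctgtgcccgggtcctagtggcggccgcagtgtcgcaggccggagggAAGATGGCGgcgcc
MRPL40: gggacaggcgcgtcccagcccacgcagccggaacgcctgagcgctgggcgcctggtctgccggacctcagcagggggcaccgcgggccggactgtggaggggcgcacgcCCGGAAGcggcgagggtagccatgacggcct
MRPS12: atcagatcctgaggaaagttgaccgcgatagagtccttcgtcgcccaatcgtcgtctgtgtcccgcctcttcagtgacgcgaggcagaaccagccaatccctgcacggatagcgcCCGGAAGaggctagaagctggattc
MRPL17: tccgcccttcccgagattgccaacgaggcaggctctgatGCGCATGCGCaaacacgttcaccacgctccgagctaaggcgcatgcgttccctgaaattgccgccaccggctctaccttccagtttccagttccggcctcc
The other 4 belong to genes whose peak was lost. They are MRPL20 (2 ETS matches, chr1:1407274-1407413, minus strand), MRPL16 (ETS, chr11:59810759-59810898, minus strand), MRPS10 (ETS and YY1, chr6:42217842-42217981, minus strand) and MRPL46 (YY1, chr15:88467369-88467508, minus strand).
MRPL20: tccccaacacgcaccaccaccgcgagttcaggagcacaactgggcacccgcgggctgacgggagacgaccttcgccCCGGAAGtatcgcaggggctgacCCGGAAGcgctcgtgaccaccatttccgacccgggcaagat
MRPL16: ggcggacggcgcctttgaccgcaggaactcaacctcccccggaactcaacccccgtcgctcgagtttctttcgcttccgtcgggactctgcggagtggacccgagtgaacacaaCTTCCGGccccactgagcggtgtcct
MRPS10: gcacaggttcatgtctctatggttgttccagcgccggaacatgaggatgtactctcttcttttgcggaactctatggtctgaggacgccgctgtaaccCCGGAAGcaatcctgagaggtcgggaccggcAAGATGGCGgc
MRPL46: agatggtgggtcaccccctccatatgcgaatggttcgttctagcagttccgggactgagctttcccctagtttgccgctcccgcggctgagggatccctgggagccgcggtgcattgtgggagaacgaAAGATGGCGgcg
Both DMSO peaks covered each of these 8 stretches in full. The ACSS2i peaks covered MRPL38, MRPL40 and MRPS12 in full in both libraries, and MRPL17 in part in replicate 1 and in full in replicate 2.

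Across the windows of the promoter table, which run from 250 bases before to 50 after a start, the ETS letters stood in 29 of the 69 windows (42.0%), against 14.2% of 15842 protein-coding windows. The YY1 letters stood in 13 (18.8%), against 2.74%. The set thus held both more often than protein-coding promoters at large, as a description with no test. NRF1 letters stood in 1 window (1.45%, MRPL17, against 1.75%), GGGCGG of the SP and KLF factors in 42 (60.9%, against 58.5%) and the E-box CACGTG in 6 (8.70%, against 8.88%). The CCAAT box (CCAAT) stood in 20 windows (29.0%, against 36.4%), the AP-1 letters TGANTCA in 1 (1.45%, against 5.75%) and the TATA box (TATAAA) in 2 (2.90%, against 9.63%). Both ETS and YY1 letters stood in 4 windows, of MRPL38, MRPL52, MRPS10 and MRPS18A, and the matches overlapped in none of these 4. Of 39 ETS matches, 27 lay between 50 bases before and 20 after the start, and 10 of 14 YY1 matches lay after the start. The subunits were similar in these shares: 17 of 42 large and 12 of 27 small subunit windows held ETS letters, and 8 and 5 held YY1 letters. Among lost genes 9 of 17 windows held ETS letters and 5 of 17 YY1 letters, against 16 and 6 of 33 windows of genes with a peak in all 4 libraries. Median GC content was 60.3% over the 69 windows and 62.7% over all.

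The lists themselves differed in length. DMSO replicates 1 and 2 held 34696 and 50294 peaks, and the ACSS2i lists held 16400 (replicate 1) and 22044 (replicate 2), with median −log10 q values of 10.0, 16.6, 6.20 and 7.15. The part of list length and signal strength in the values that follow was gauged by cutting every list to its strongest 16400 peaks, and that value is given beside the main counts and ranks. Of 10 renal and clear cell carcinoma markers, 8 were marked by a gene-end peak in the DMSO pair of lists, 5 of these in all 4 lists. PAX2 and CA9 had none in any. Of the 13 immune, endothelial, hepatocyte and neuron markers, CD14 and APOA1 had a peak in DMSO replicate 2 only, SNAP25 in both DMSO libraries, and the other 10 in none.

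In DMSO nearly every mitochondrial ribosomal protein gene was open at an end, and after ACSS2i far fewer had a listed peak. DMSO replicates 1 and 2 listed 69 and 73 of the 77 genes, and ACSS2i replicates 1 and 2 listed 38 and 44. The groups did not overlap. The mean was 71 ± 2.83 genes in DMSO and 41 ± 4.24 in ACSS2i (SD, n = 2), a ratio of 0.577, with p = 0.333 in a two-sided exact permutation test, the smallest that 2 against 2 libraries can give. Over all protein-coding genes the same counts were 52.6%, 60.0%, 32.5% and 40.7% in that order, a ratio of 0.651. With every list cut to 16400 peaks the set had 38, 48, 38 and 36 genes, and the groups overlapped (43 ± 7.07 against 37 ± 1.41, SD, n = 2, exact permutation p = 0.667). The libraries pool cells, so that fewer cells with an open site and a less open site in each cell cannot be told apart.

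**Figure D1:**
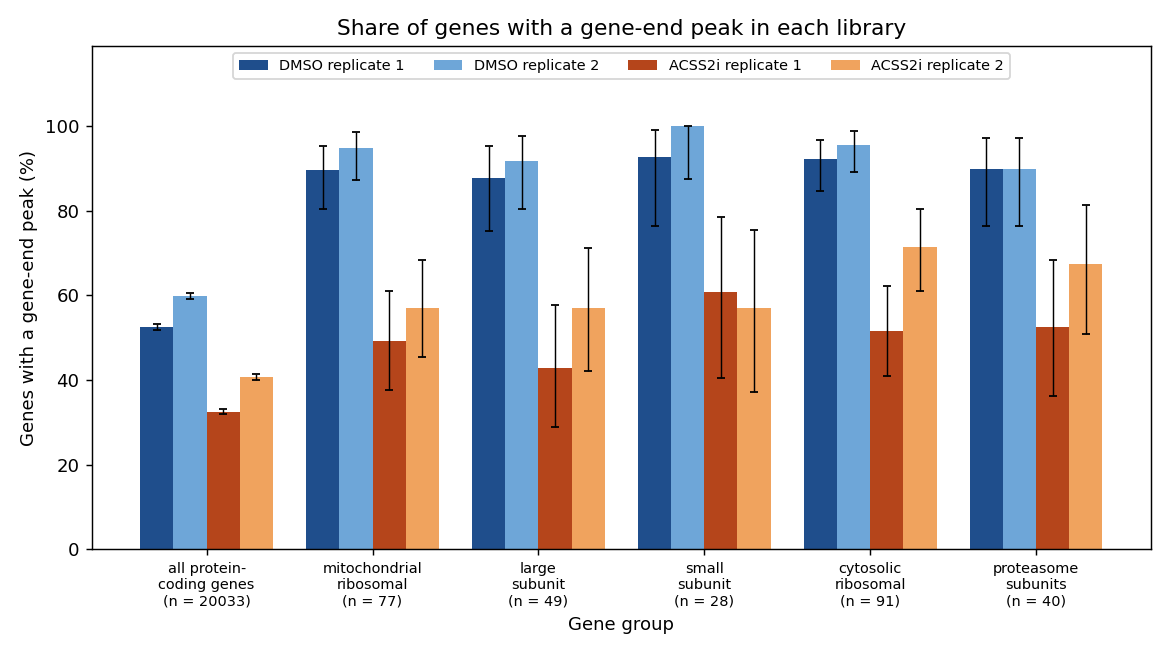
Share of genes (%, y axis) with a peak within 1000 bp of a gene end, for 6 gene groups (x axis), with 1 bar per library and whiskers for exact 95% binomial intervals. The 4 bars of the mitochondrial ribosomal protein genes stand for 69, 73, 38 and 44 of 77 genes, and every group is lower in both ACSS2i libraries than in both DMSO libraries.

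For the large subunit the DMSO lists held 43 and 45 of 49 genes, and the ACSS2i lists 21 and 28. For the small subunit they held 26 and 28 of 28 genes, falling to 17 and 16. Ratios of the means were 0.557 (44 ± 1.41 to 24.5 ± 4.95) and 0.611 (27 ± 1.41 to 16.5 ± 0.707, SD, n = 2), each with an exact permutation p of 0.333. Over all protein-coding genes the ratio was 0.651. ACSS2i replicate 1 listed 42.9% of the large and 60.7% of the small subunit genes, while replicate 2 listed 57.1% of each. These counts depend on list length. At equal list lengths the large subunit had 23 and 27 genes in DMSO against 21 and 23 in ACSS2i, so its groups met at 23. The small subunit then had 15 and 21 in DMSO against 17 and 13 in ACSS2i, so its groups overlapped. Neither difference at equal length was tested.

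A peak was listed in both DMSO libraries for 68 genes, and the 2 DMSO peaks overlapped in all 68. Of these, 34 (50%) kept a peak in both ACSS2i libraries, against 58.0% of the 10468 protein-coding genes that both DMSO lists held. In 1 of the 2 ACSS2i libraries a peak was listed for 14, against 23.1% of all such genes. The peak was lost for 20, or 29.4% (exact 95% binomial interval 19.0% to 41.7%, counting error only), against 18.9% of all such genes. Between 21 and 30 genes were lost when 1 library was left out, the highest count without ACSS2i replicate 2 (30 of 68, beside 38.1% of all genes). Leaving out a library loosens the rule for loss, so the count could not fall below 20. Among the remaining genes, 6 of the 77 had a peak in 1 DMSO library only, a class that held 1516 of all 20033 protein-coding genes. The other 3 had none in any library, against 39.6% of all protein-coding genes. Those 3 were the only genes of the set without a DMSO peak, so the set gained none. Of 7949 protein-coding genes without a DMSO peak, 0% were gained in both ACSS2i libraries.

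Weak DMSO peaks were lost most often, so the set was read against other genes of the same DMSO strength. Strength is the lower of a gene's 2 DMSO percentiles, where a percentile is the rank of −log10 q among all peaks of a list. Other genes in the same deciles of strength lost 21.9%, which would be 14.9 of the 68 genes beside the 20 counted. The difference was 7.47 percentage points, and carrying the interval of the set's own share it ran from −2.96 to 19.8, which includes 0. With equal list lengths 1 of 34 genes was lost (2.94%), beside 5.27% of all genes and 5.60% at the same strength, and that gene was MRPL10, counted through a peak at the edge of its window. The excess over genes of the same strength fell to 0.490 percentage points without ACSS2i replicate 2.

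Genes were also split into 4 bands of DMSO strength, of equal size over all genes. The weakest band (percentile 43.0 or less) held 22 of the 68 genes and lost 13 (59.1%), against 54.5% of other genes. Band 2, up to 65.4, held 17 and lost 6 (35.3%, exact interval 14.2% to 61.7%), against 17.2% of others. Band 3, up to 82.9, held 19 and lost 0, which allows up to 15.8%, against 3.16%. The strongest band held 10 and lost 1, MRPL10, against 0.575% of others. MRPL10 stands in that band through a peak at the edge of its window. Taking the peak closest to a gene end in place of the strongest gave 14 of 23, 6 of 18, 0 of 17 and 0 of 10 lost in bands 1 to 4, against 52.9%, 18.9%, 3.19% and 0.460% of others. Each interval of the set is wide.

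**Figure D2:**
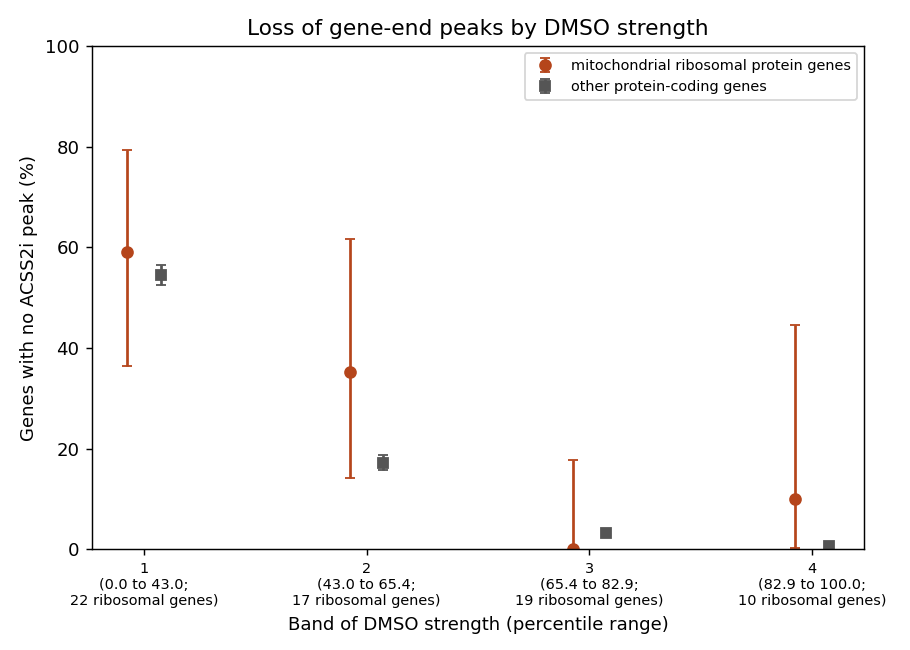
Share of genes with peaks in the DMSO lists and none in the ACSS2i lists (%, y axis) by band of DMSO strength (x axis), with exact 95% binomial intervals, for mitochondrial ribosomal protein genes (circles) and other protein-coding genes (squares). For the ribosomal genes loss is 59.1% in the weakest band, 0 of 19 in band 3 and 10% in the strongest, and for the others it falls from 54.5% to 0.575%.

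Of 42 large subunit genes with both DMSO peaks, 12 were lost (28.6%, 15.7% to 44.6%), 11 kept 1 ACSS2i peak and 19 kept both. Of 26 small subunit genes, 8 were lost (30.8%, 14.3% to 51.8%), 3 kept 1 and 15 kept both. The difference was −2.20 percentage points, with an interval from −26.8 to 20.8, and its sign turned in several settings. Without ACSS2i replicate 2, 21 of 42 and 9 of 26 were lost, a difference of 15.4 points, and with equal list lengths 1 of 19 and 0 of 15, a difference of 5.26 points. Other genes of the same DMSO strength lost 22.7% and 20.7%. MRPS30 and MRPS18A are named for the small subunit but lie in the large one, and counting them there gave 13 of 44 and 7 of 24 lost.

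Genes of proteins with a bacterial counterpart were lost in 15 of 40 cases (37.5%, 22.7% to 54.2%), and genes of proteins particular to mitochondria in 5 of 28 (17.9%, 6.06% to 36.9%). Other genes of the same strength lost 22.6% and 21.01%. The intervals overlap, and the difference was not tested. It ran the same way in both subunits, with 9 of 24 against 3 of 18 in the large and 6 of 16 against 2 of 10 in the small. Without ACSS2i replicate 2 the counts were 22 of 40 and 8 of 28, with a −log10 q of at least 5 they were 16 of 36 and 12 of 27, and with equal list lengths 1 of 19 and 0 of 15.

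Fold enrichment, the peak height over local background as the authors' caller gave it, is given for the strongest peak in the window of each lost gene. MRPL10 (chr17:47823272-47831541), which forms the base of the stalk that carries MRPL12, had 2 such peaks in DMSO. The one over an end of its span, beside LRRC46, had folds of 4.85 and 8.14 in DMSO replicates 1 and 2 (−log10 q 7.26 and 24.2) and no ACSS2i counterpart. The stronger one, at an end of OSBPL7, lay 987 and 969 bp outside the other end of MRPL10, just within the window, with folds of 8.31 and 10.6 (percentiles 87.3 and 90.8). An ACSS2i replicate 1 peak with a fold of 4.34 overlapped that stronger peak but lay 1299 bp from the gene, so the window edge set its count as lost. For the other 19 lost genes no ACSS2i peak overlapped the stretch shared by the DMSO peaks. A 2000 bp window no longer counted MRPL10 or MRPL13 as lost.

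MRPL16 (chr11:59806140-59810778), a core protein of bacterial descent, had folds of 6.85 and 9.17 in DMSO. MRPL27, whose bacterial counterpart reaches the peptidyl transferase centre, had 5.66 and 7.54. MRPL30 had 5.41 and 8.96 and MRPL15 4.53 and 8.87, both of bacterial descent. In each of these the DMSO replicate 2 value was the higher. MRPL3, a core protein near the peptidyl transferase centre in which mutations cause mitochondrial disease, had 3.54 and 8.58 (chr3:131462212-131502971), with −log10 q of 3.08 and 20.6. MRPL20 (chr1:1401909-1407293), whose bacterial counterpart joins early in assembly, had 4.13 and 9.26. MRPL13 had 3.23 and 9.85, and an end of MTBP lies beside it. These 3 peaks were weak in DMSO replicate 1 and well above the floor of the list, a −log10 q of 2, in replicate 2.

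MRPL36, a small protein of bacterial descent, had folds of 4.08 and 6.34 in DMSO from a peak whose summits lay 140 and 122 bp from its listed start. A weaker peak over the far end of its span, beside NDUFS6, had 2.99 and 4.74. MRPL43, of the mitochondrial kind, had 4.02 and 7.07 and shares its end with TWNK, the mitochondrial DNA helicase. MRPL52 had 4.50 and 5.92. MRPL46 of the large subunit and MRPS11 of the small subunit face each other across 1 peak on chromosome 15 with folds of 4.59 and 6.11 (−log10 q 6.46 and 13.1). Both are counted as lost through that peak, and counting the pair once gave 19 of 67.

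Among the other small subunit genes, MRPS5, whose bacterial counterpart lines the mRNA entry, had folds of 5.42 and 12.5 in DMSO (chr2:95085369-95122003, −log10 q 8.998 and 45.6). MRPS17 had 5.13 and 11.95, and MRPS25 6.09 and 9.79. MRPS15 had 4.65 and 5.98, MRPS10 had 4.34 and 8.61 and MRPS27, a protein of the mitochondrial kind with RNA-binding repeats, had 4.58 and 8.57 beside PTCD2. MRPS18A had 3.27 and 9.94, and its DMSO replicate 1 peak stood at the floor of the list (−log10 q 2.096). In every lost gene the fold was higher in DMSO replicate 2 than in replicate 1. This order was not particular to lost genes. Median folds in DMSO replicates 1 and 2 were 6.21 and 8.91 over all protein-coding genes with a gene-end peak. They were 6.84 and 10.3 over the 34 genes of the set with a peak in all 4 libraries. The median distance from a lost gene's end to the nearest ACSS2i peak was 10743 bp, from 1299 bp at MRPL10 to 189762 bp at MRPL36.

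**Figure D3:**
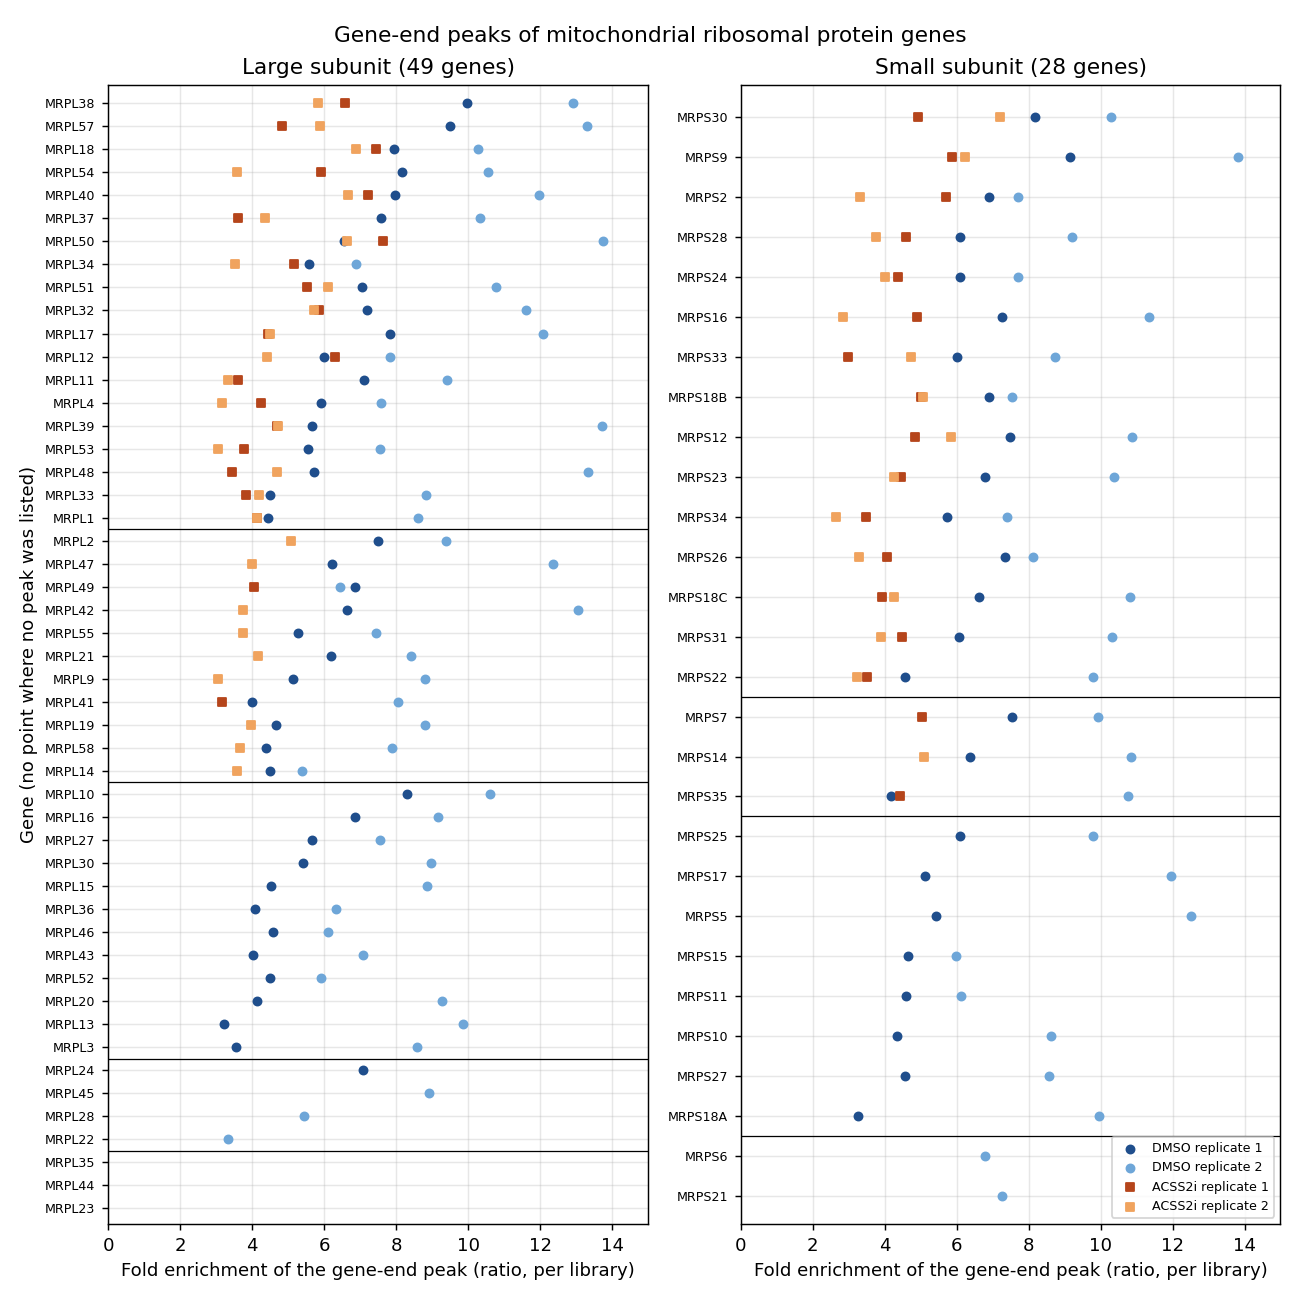
Fold enrichment of the gene-end peak (x axis, ratio to local background within a library) for each large subunit gene (left) and small subunit gene (right), ordered within blocks by DMSO strength, with blocks from top to bottom for a peak in all 4 libraries, in 1 ACSS2i library, lost, in 1 DMSO library and none. ACSS2i squares lie left of the DMSO circles in nearly all rows that hold them.

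The 14 genes with a peak in 1 ACSS2i library divided unevenly, and the peaks of MRPL2 and MRPL41 did not overlap between all their libraries. Replicate 2 alone listed 10, which were MRPL2, MRPL9, MRPL14, MRPL19, MRPL21, MRPL42, MRPL47, MRPL55, MRPL58 and MRPS14. Replicate 1 alone listed 4, which were MRPL41, MRPL49, MRPS7 and MRPS35. The replicate 2 list was also the longer, with 22044 peaks against 16400. Of all protein-coding genes with both DMSO peaks, 38.1% had none in ACSS2i replicate 1 and 22.8% none in replicate 2. For the 68 genes of the set these shares were 44.1% and 35.3%, so the uneven split was not particular to the set. MRPL58, a peptidyl-tRNA hydrolase that frees stalled ribosomes, had folds of 4.38 and 7.89 in DMSO and 3.65 in ACSS2i replicate 2. MRPS35 was the exception in level, with 4.44 in ACSS2i replicate 1 above 4.19 in DMSO replicate 1, and 10.8 in DMSO replicate 2. In DMSO these 14 genes stood between the lost and the kept: the median DMSO strength was 34.9 for lost genes, 51.8 for these and 76.5 for genes with a peak in all 4 libraries.

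A few genes lacked a gene-end peak already in DMSO. MRPL24 was listed in DMSO replicate 1 only, and MRPL22, MRPL28, MRPL45, MRPS6 and MRPS21 in DMSO replicate 2 only. MRPL45, which lies at the exit tunnel facing the inner membrane, had a fold of 8.93 in that library. MRPL24 stood just outside the window in the other libraries, with peaks 1039, 1193 and 1047 bp from an end in DMSO replicate 2 and ACSS2i replicates 1 and 2, while MRPL34 was the farthest counted inside, at 999 bp in DMSO replicate 1. MRPL44, which has an RNase III fold and is mutated in a cardiomyopathy, had no gene-end peak, with the nearest peaks 5393 to 6038 bp away. MRPL35 had its nearest 3674 to 3784 bp away. MRPL23 had its nearest 2970 bp away in DMSO replicate 2 and at 62366 bp or more in the others. All 3 genes with no peak belong to the large subunit, and 0 of 28 small subunit genes had none, which allows up to 10.7%.

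The 34 genes with a peak in every library had lower folds after ACSS2i. In DMSO replicates 1 and 2 their median fold was 6.84 and 10.3, while the ACSS2i libraries gave 4.65 and 4.302 (8.58 ± 2.45 against 4.47 ± 0.243, SD, n = 2, exact permutation p = 0.333). Over the 6074 protein-coding genes with a peak in all 4 libraries, the medians were 7.06, 10.1, 5.00 and 5.04. Both ACSS2i folds lay under both DMSO folds for 32 of 34 genes (94.1%), against 84.4% of the 6074. The exceptions were MRPL50 and MRPL12. One of the 34, MRPS23, was read at different sites, with its strongest peak at its 3′ end in DMSO and at its start in ACSS2i. At its start alone the folds were 6.42 and 7.48 in DMSO against 4.46 and 4.26 in ACSS2i. Among the 33 genes whose 4 peaks overlapped, both ACSS2i folds lay under for 31 (93.9%), against 84.8% of all such genes. Both lay over for 0 of 34, which allows up to 8.82%, against 0.165%. A gene enters this set only with a peak strong enough to be listed in every library, so these values leave out the genes whose peak fell below the list.

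Ranks within a list were lower too. In DMSO the median percentile was 77.6 and 85.3, and after ACSS2i it was 46.4 and 50.6 (81.5 ± 5.46 against 48.5 ± 2.93, SD, n = 2, exact permutation p = 0.333), beside 80.7, 88.5, 58.4 and 69.8 over the 6074 genes. Both ACSS2i percentiles lay under both DMSO percentiles for 26 of 34 genes (76.5%), against 61.1%. Both lay over for none of the 34, against 0.873%. The median change was −28.3 percentile points, from −64.2 to 5.09, and was −22.1 for the large subunit, −31.6 for the small subunit and −18.6 over the 6074 genes. A percentile depends on how many weak peaks a list holds, and with equal list lengths the difference between the group medians was 1.17 points (exact permutation p = 1) over the 24 genes then listed everywhere.

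To rank over the same genes in every list, each gene was also ranked among the 6074 genes alone, where the median gene is at 50 in every library. List length still decides which genes enter this ranking, since every list must hold them. The mitochondrial ribosomal protein genes stood at medians of 43.2 and 39.9 in DMSO against 36.7 and 26.7 in ACSS2i (41.5 ± 2.36 against 31.7 ± 7.09, SD, n = 2, exact permutation p = 0.333). They were thus below the typical such gene in every library, and lower in both ACSS2i libraries than in both DMSO libraries. The large subunit had medians of 45.5 and 44.2 in DMSO against 35.4 and 31.2 in ACSS2i. The small subunit had 40.5 and 34.6 with DMSO, then 38.0 and 25.7 with ACSS2i, so its groups overlapped (exact permutation p = 0.667). Single genes went both ways on this scale. Both ACSS2i ranks lay under both DMSO ranks for 8 of 34 genes, against 16.5% of the 6074, and over them for 7, against 19.0%. All 7 that lay over were large subunit genes, with 0 of 15 in the small subunit, which allows up to 20%.

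**Figure D4:**
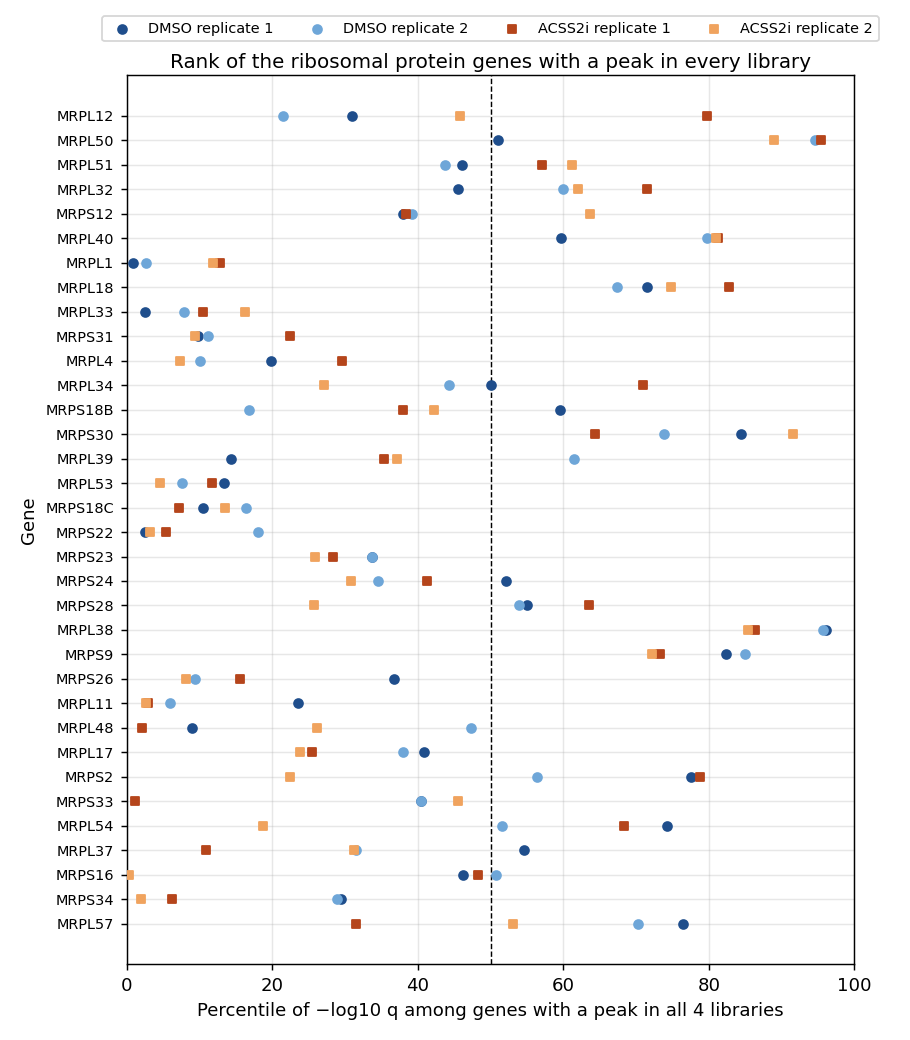
Percentile of −log10 q (x axis) of each of the 34 mitochondrial ribosomal protein genes with a peak in every library (y axis, ordered by change), ranked among the 6074 protein-coding genes with a peak in all 4 libraries, with circles for DMSO and squares for ACSS2i and a dashed line at the median gene. MRPL12 lies at the top with ACSS2i ranks of 79.7 and 45.9 over DMSO ranks of 30.9 and 21.5, and MRPL57 at the bottom.

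MRPL12, the stalk protein that recruits translation factors, had the largest upward difference in this rank. Its folds were 6.01 and 7.84 in DMSO against 6.31 and 4.41 in ACSS2i (chr17:81703367-81707517), and its common ranks were 30.9, 21.5, 79.7 and 45.9. MRPL50 had folds of 6.54 and 13.7 in DMSO against 7.63 and 6.64 in ACSS2i, with ranks of 51.0, 94.6, 95.5 and 89.0, so that DMSO replicate 1 was the low library. MRPL51 had ranks of 46.0 and 43.8 in DMSO against 57.0 and 61.2 in ACSS2i. MRPL32, which the m-AAA protease processes before it is built in, had ranks of 45.5 and 59.95 in DMSO against 71.5 and 62.0 in ACSS2i, and shares its end with the proteasome gene PSMA2. MRPL40 had folds of 7.96, 11.97, 7.20 and 6.66, and MRPL18, which in bacteria holds 5S rRNA, had 7.94, 10.3, 7.44 and 6.90. Both ACSS2i folds of these 2 genes lay under both DMSO folds while both ACSS2i common ranks lay over both DMSO ranks. Over the 6074 genes, folds lay under in this way for 84.4% and common ranks lay over for 19.0%. The genes named so far in this paragraph are among the 8 named for the smallest fall or a rise in percentile. High ACSS2i ranks were thus part of the choice. MRPL1, of bacterial descent, was weak throughout, with ranks of 0.922 and 2.58 in DMSO against 12.8 and 11.9 in ACSS2i, and with equal list lengths it was the one gene of the set listed in both ACSS2i and neither DMSO library.

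MRPL57 had the largest downward difference in common rank, with 76.5 and 70.3 in DMSO against 31.5 and 53.0 in ACSS2i, with folds of 9.50, 13.3, 4.82 and 5.88. MRPS34, a small subunit protein of the mitochondrial kind, had ranks of 29.4 and 28.8 against 6.19 and 2.01, with folds of 5.75, 7.39, 3.48 and 2.66. In both genes the groups did not overlap in rank or fold. MRPL57 was named for its fall in common rank and MRPS34 for its fall in percentile, so lower ACSS2i values were part of the choice. Both ACSS2i common ranks lay under both DMSO ranks for 16.5% of the 6074 genes. MRPS16, in which mutations cause a respiratory chain deficiency, had folds of 7.26, 11.3, 4.91 and 2.83, and its rank of 0.321 in ACSS2i replicate 2 stood apart from 46.3, 50.8 and 48.3 in the other libraries. MRPL11, at the foot of the stalk, had folds of 7.12 and 9.43 in DMSO against 3.62 and 3.33 in ACSS2i. MRPL37 had 7.56, 10.3, 3.61 and 4.34, and MRPL53 had 5.54, 7.54, 3.78 and 3.04. MRPS26 had 7.36 and 8.11 in DMSO against 4.07 and 3.29 in ACSS2i, and MRPS33 had 6.01, 8.75, 2.99 and 4.72. MRPS22, another disease gene, had 4.55, 9.78, 3.503 and 3.24. The last 7 genes are among the 8 named for the largest fall in percentile, so lower ACSS2i values were part of the choice. In each of them the ACSS2i folds lay under both DMSO folds. The same held for 32 of the 34 genes of the set and 84.4% of the 6074.

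Of the 8 genes strongest in DMSO, 7 had a peak in every library, and the other was MRPL10 with its edge peak. MRPL38 (chr17:75898644-75904884), of the mitochondrial kind, was the strongest, with folds of 9.96 and 12.9 in DMSO against 6.59 and 5.84 in ACSS2i (−log10 q 45.3, 106, 14.8 and 20.3) and percentiles of 98.6, 99.1, 88.9 and 92.2 within the lists. MRPS9 had folds of 9.16, 13.8, 5.87 and 6.22, and MRPS30 had 8.17, 10.3, 4.92 and 7.22. MRPS2 had 6.89, 7.72, 5.69 and 3.31, and MRPL54 had 8.16, 10.5, 5.91 and 3.59. The DMSO peaks of these genes stood far above the floor of their lists, which follows from choosing them by DMSO strength. MRPS12, of the decoding centre, had 7.49 and 10.9 in DMSO against 4.85 and 5.86 in ACSS2i, and shares its end with SARS2, a mitochondrial tRNA synthetase gene.

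Most peaks of the set sat near gene starts. Only peaks within 1000 bp of a gene end were counted, which limits the distances below, and the same shares were not computed over all protein-coding genes. Among genes with a listed start, the median distance from summit to start was 94, 98, 122 and 94 bp in DMSO replicates 1 and 2 and ACSS2i replicates 1 and 2, and the summit lay within 250 bp for 56 of 63, 59 of 67, 31 of 37 and 36 of 41 genes. DMSO peaks had median widths of 745 and 971 bp and ACSS2i peaks 427 and 546.5 bp, beside 865, 1078, 534 and 669 bp over all gene-end peaks. The genes were short, with a median span of 8.62 kb against 24.1 kb over all protein-coding genes. An end of another protein-coding gene lay within 1000 bp for 42 of 77 genes (54.5%), against 28.5% of all. Loss was 10 of 38 with such a neighbour and 10 of 30 without, against 15.9% and 20.9% of all genes. In the small subunit it was 2 of 13 with and 6 of 13 without, and in the large 8 of 25 and 4 of 17, so the subunits ran in opposite directions with few genes in each.

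The other genes of mitochondrial translation were read from lists of their own. Of 80 such genes in 5 lists, 74 were present in the DMSO pair and 8 of these were lost (10.8%, 4.78% to 20.2%), beside 15.7% of genes of the same strength. With equal list lengths 3 of 50 were lost (6%), against 1 of 34 ribosomal protein genes (2.94%), so the order turned. No test was made of their difference from the ribosomal protein genes, and the intervals overlap. Of the 5 other proteins of the ribosome 0 were lost, which allows up to 60%, beside 29.1% of genes of the same strength. DAP3, a GTP-binding protein of the small subunit, had folds of 9.70, 10.2, 6.47 and 4.72. Of the 25 assembly factors, 24 had both DMSO peaks and 3 were lost (12.5%, beside 10.3% at the same strength), MRM2, ERAL1 and METTL17. Of the 16 translation factors, 15 had both and 4 were lost (26.7%, beside 19.8% at the same strength), TSFM, GFM2, SLIRP and MTFMT. TUFM, the elongation factor that brings tRNA to the ribosome, had folds of 8.24 and 10.98 in DMSO against 4.20 and 4.58 in ACSS2i. Of the 22 genes for charging mitochondrial tRNA, 20 had both and 1 was lost (5%, beside 14.3% at the same strength), VARS2. Of the 12 regulators, 10 had both and 0 were lost, which allows up to 30%, beside 18.1% at the same strength. NRF1 and YY1 themselves were listed in DMSO replicate 2 alone, with folds of 9.58 and 6.56. GABPA, an ETS factor of mitochondrial genes, had 7.79, 11.7, 5.15 and 5.06.

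The cytosolic ribosome and the proteasome, many of whose genes are also widely active, gave the nearest comparisons. Both sets were taken by symbol alone, so they can hold genes that are not subunits. Of 84 cytosolic ribosomal protein genes with both DMSO peaks, 17 were lost (20.2%, 12.3% to 30.4%), beside 17.7% at the same strength. Of 36 proteasome genes, 9 were lost (25.0%, 12.1% to 42.2%), beside 16.9%. The mitochondrial ribosomal share of 29.4% had an interval that overlapped both, and no test of the difference was made. With equal list lengths 1 of 34 mitochondrial ribosomal protein genes was lost (2.94%). Beside it stood 3 of 46 cytosolic ribosomal genes (6.52%) and 1 of 23 proteasome genes (4.35%). The order thus turned, but on too few lost genes to rank the groups.

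The count of lost genes was recomputed under other settings. It was 20 of 67 with a 500 bp window (19.7% of all genes), 18 of 69 with 2000 bp (18.6%), 20 of 67 when the summit had to lie in the window (19.0%) and 17 of 64 with listed starts alone (17.8%). It was 28 of 63 with a −log10 q of at least 5 (29.8% of all genes), 15 of them among the 20 reported, and 16 of 52 without peaks nearer to another gene (21.2%). It was 25 of 73 without DMSO replicate 1 (28.5% of all genes), 21 of 69 with that library kept and DMSO replicate 2 left out (19.4%), and 24 of 68 when ACSS2i replicate 1 was the library left out (22.8%). Counts with a library left out could not fall below the 20 reported.

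**Figure D5:**
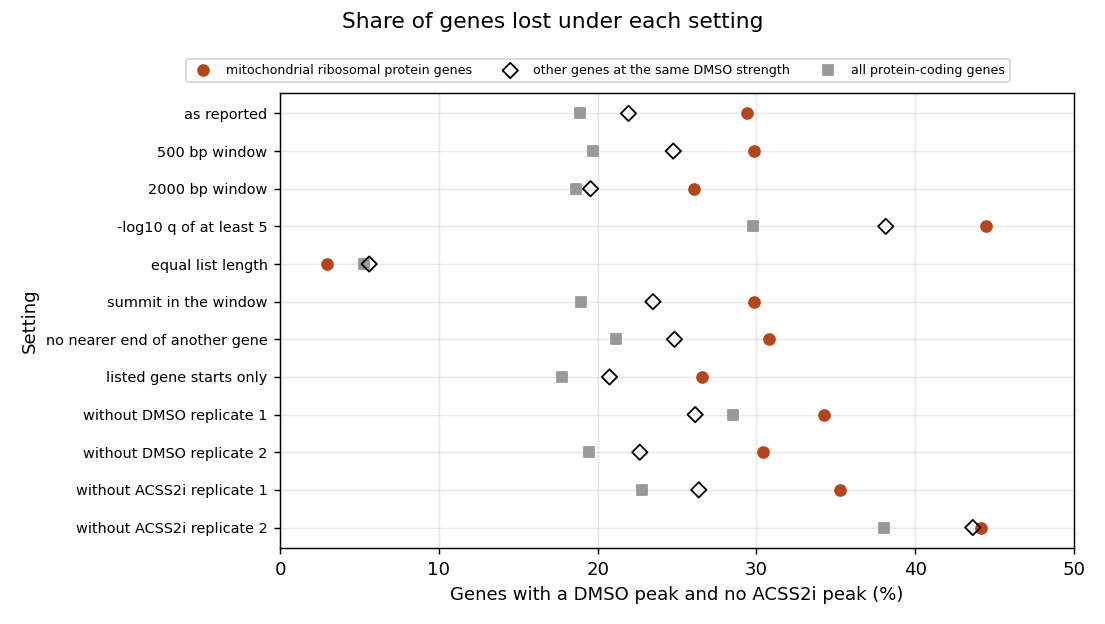
Share of genes lost (%, x axis) under each setting (y axis) for mitochondrial ribosomal protein genes (circles), other genes of the same DMSO strength (diamonds) and all protein-coding genes (squares). The circle lies right of the diamond except with equal list length, where 1 of 34 genes was lost, and the 2 nearly coincide without ACSS2i replicate 2.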

How the data were processed

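Peaks of 4 ATAC-seq libraries from 786-O cells were analysed, 2 per treatment, grouped by the treatment in the labels. Per the submitters' processing notes, the build was hg38, MACS2 2.1.2 is among the tools, and Bowtie2 and bedtools are listed with no version. The same notes name Trimmomatic 0.38 and Picard 2.18.26. For caller options, duplicates, any Tn5 shift and the filter of the lists, details stand as not given in the sources used here. Peaks were listed per library. The authors deposited a score per summit, which was not used further, the fold (a ratio to local background), −log10 p and −log10 q values of the caller (a p-value and a q-value), and the offset of the summit. Depth in reads is unknown, and every deposited −log10 q was above 2. Fold and q are the authors' values and were used to describe and rank peaks within a list.

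Summits sharing an interval (46692, 69876, 20514 and 29244 summits in DMSO replicates 1 and 2 and ACSS2i replicates 1 and 2) were counted as 1 peak with the values of the strongest. Gene spans and promoter windows came from RefSeq tables of GRCh38.p14. Genes of the same strength are non-members in the same decile of DMSO strength, whose share lost was averaged over the set, with no random draw. Binomial intervals are exact (Clopper-Pearson, 95%), and limits for a count of 0 rest on 3 counts. Tests were two-sided exact permutations over libraries. The assignment of peaks to gene ends and the call of a lost peak were run on simulated peak lists, and the permutation tests were not. Named genes are those lost, absent or gained, the 8 strongest in DMSO, the 8 with the largest and the 8 with the smallest fall in percentile, and 8 with known roles; other genes were named after their values were seen. The genes and all lists (subunit, bacterial descent, 5 pathway lists, markers, motifs, cytosolic ribosome, proteasome) were chosen with earlier results of these data known. Alternatives were the window, a stricter q, equal list length, the summit, nearer genes, listed starts, each library left out, a replicate block, the subunit by position and other matching. The common rank, counting the pair that shares a peak once, the peak closest to a gene end, the overlap of peaks between libraries and the overlap of lost peaks were added after seeing the data. The analysis used Python 3.11.15, numpy 2.4.6, pandas 2.3.3, scipy 1.17.1 and matplotlib 3.10.9.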

Additional observations from a re-analysis of the deposited data

How the results depend on the processing

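The main limit is list length. With every list cut to 16400 peaks, lost genes numbered 1 in place of 20, the share lost minus that at the same strength turned from 7.47 to −2.66 percentage points and large minus small subunit from −2.20 to 5.26. The difference between the DMSO and ACSS2i means of genes listed fell from 30 to 6 (exact permutation p = 0.667). The subunit difference also turned with a −log10 q of at least 5 (0.737), without peaks nearer to another gene (3.69), by position in the ribosome (0.379) and with the shared peak counted once (0.571). With 1 library left out, lost genes ranged from 21 to 30, a count that such an omission cannot lower. The excess over the same strength then ranged from 0.490 to 8.93, and large minus small subunit from −5.13 to 15.4, the positive end without ACSS2i replicate 2. The difference between groups ranged from 27 to 33 genes, from 29.1 to 36.9 percentile points, and from 2.37 (without DMSO replicate 2) to 5.84 in median fold (4.10 with all libraries). At 500 bp 20 of 67 genes were lost, at 2000 bp 18 of 69 and with listed starts 17 of 64.

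With the shared replicate numbers as a block, the differences of 30 genes, 4.10 in fold and 33.0 percentile points had an exact permutation p of 0.5, the smallest that 2 pairs allow. Deviations of same-numbered libraries correlated at 0.132 in log2 fold and 0.0445 in percentile across 6074 genes, which are not independent replicates, and the numbers are shared only in the titles.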
